A study of Homo sapiens with 12 samples.

Results

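Oxidative phosphorylation was followed at the RNA level through 47 genes of the respiratory chain, all 13 protein-coding genes of the mitochondrial genome and 34 genes of the nucleus that encode further chain subunits. They were chosen by symbol, through the Ensembl identifier of each gene, and each symbol matched 1 of the 57820 genes of the count table. All 47 had enough counts to be tested, among 17096 genes tested in all. RNA had been sequenced from 12 cultures of 3 human cancer cell lines, A549 from lung, SKOV3 from ovary and MDA-MB-231 from breast. Each line stably carried a lentiviral vector for full-length human MYC, a transcription factor, or the matching empty control vector, after puromycin selection of both. The 4 groups were MYC cells with tipifarnib, MYC cells with DMSO, control cells with tipifarnib and control cells with DMSO, with 1 culture of each line in each group. Tipifarnib, an inhibitor of protein farnesyltransferase, was given for 48 h, A549 receiving 10 µM and the other lines 20 µM, so a difference of A549 from either cannot be told apart from dose. The labels name no promoter for the MYC insert and no clone, and the sequenced transcripts of the endogenous and of the introduced MYC gene are counted together.

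The respiratory chain passes electrons from NADH through complex I, or from succinate through complex II, to coenzyme Q, then through complex III and cytochrome c to complex IV, which reduces oxygen. Complexes I, III and IV pump protons, and the ATP synthase, complex V, uses the gradient to make ATP. Complexes I, III, IV and V are built from subunits of both genomes, so that transcripts made in mitochondria by a polymerase of their own and transcripts made in the nucleus are needed together. Complex II and cytochrome c are encoded in the nucleus alone. MYC is known as an activator of many nuclear genes for mitochondrial proteins.

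MYC (ENSG00000136997.10) itself checked the labels. Its level is given as CPM, the counts of a gene per 1000000 gene counts after scaling of the libraries. A549 had 506 CPM with tipifarnib and 912 CPM with DMSO in MYC cells, against 144 and 105 CPM with the same treatments in control cells. SKOV3 had 610.1 CPM with tipifarnib and 494 CPM with DMSO in MYC cells, against 99.7 and 48.4 CPM with the same treatments in control cells. MDA-MB-231 had 1593 CPM with tipifarnib and 709 CPM with DMSO in MYC cells, against 349 and 148 CPM with the same treatments in control cells. Every MYC library lay above both control libraries of its line, and the fitted log2 difference of MYC from control cells over the lines was 2.61 ± 0.24 (edgeR quasi-likelihood test, Benjamini-Hochberg, adjusted p = 0.00745). In MDA-MB-231, MYC was also higher with tipifarnib than with DMSO, by 1.20 ± 0.26 (adjusted p = 0.011 in the same test). The farnesyltransferase subunits FNTA (0.30 ± 0.10, adjusted p = 0.0937) and FNTB (-0.41 ± 0.14, adjusted p = 0.089) did not pass that test for tipifarnib. Gene counts per library were 20481363 to 26962994. A marker of each line was highest where the labels placed it, AKR1B10 at 1410 to 2930 CPM in A549, PAX8 at 173 to 265 CPM in SKOV3 and ZEB1 at 107 to 141 CPM in MDA-MB-231. Not all markers kept to their line. The lung markers SFTPB and NAPSA reached at most 0.091 and 2.05 CPM in A549, and the ovarian markers WT1 and MUC16 at most 1.76 and 0.651 CPM in SKOV3. In A549, WT1 had 4.49 to 8.8 CPM and MUC16 up to 4.27 CPM. CAV1, looked at as a marker of MDA-MB-231, had 149 to 716 CPM there and 311 to 1080 CPM in SKOV3. The leukocyte marker PTPRC reached at most 0.505 CPM in any library.

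The DNA just before the start sites of 4 nuclear members, SDHB, SDHD, COX5B and CYCS, is shown because these genes rose in MYC cells and hold letters typical of known activators of respiratory genes. Each sequence runs 5′ to 3′ on the gene's own strand up to the base before the annotated start, from RefSeq on GRCh38.p14. The positions are chr1:17054033-17054242 on the minus strand, chr11:112086753-112086872 on the plus strand, chr2:97645916-97646061 on the plus strand and chr7:25125261-25125439 on the minus strand. Capitals mark GCATGCGC or its reverse complement GCGCATGC, the shorter form of the site of nuclear respiratory factor 1 (NRF1), which in SDHD is preceded by GC and so gives the longer palindromic form. They also mark CCGGAAG or its reverse complement CTTCCGG, the core of sites for ETS factors such as GABP.
SDHB: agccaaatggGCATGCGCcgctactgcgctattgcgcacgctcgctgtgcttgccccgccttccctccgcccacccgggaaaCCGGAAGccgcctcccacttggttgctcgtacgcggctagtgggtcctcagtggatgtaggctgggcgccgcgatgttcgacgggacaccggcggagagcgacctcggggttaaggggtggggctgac
SDHD: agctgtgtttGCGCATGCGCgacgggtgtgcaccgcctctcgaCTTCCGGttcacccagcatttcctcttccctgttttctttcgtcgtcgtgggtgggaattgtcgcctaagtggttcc
COX5B: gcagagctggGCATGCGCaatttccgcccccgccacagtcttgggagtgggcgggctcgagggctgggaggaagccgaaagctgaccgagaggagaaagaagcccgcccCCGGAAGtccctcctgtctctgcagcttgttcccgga
CYCS: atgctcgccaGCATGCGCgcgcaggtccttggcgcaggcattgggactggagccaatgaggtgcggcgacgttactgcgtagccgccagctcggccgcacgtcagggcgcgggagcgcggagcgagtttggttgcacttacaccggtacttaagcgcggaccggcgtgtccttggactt

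RefSeq promoters were at hand for 27 of the 34 nuclear members, and the 250 bases before each start were searched on both strands. The shorter NRF1 letters were in 5 of the 27 (18.5%), the 4 above and NDUFS6, against 2.81% of all 27305 promoters. The longer form, with GC before the shorter letters, was in 1 (3.7%), SDHD, against 1.13%. The ETS letters were in 7 (25.9%), COX5B, NDUFB7, NDUFS1, NDUFS3, SDHB, SDHD and UQCRQ, against 8.82%. The E-box CACGTG, the preferred site of MYC, was in 0 of the 27 windows and 6.49% of all promoters, and the letters AAGATGGC of YY1 sites (reverse complement GCCATCTT) were in 0 and 1.37%. Of the 10 members that rose in MYC cells and had a promoter here, 4 held any of these letters and 6 (NDUFV1, NDUFC1, UQCRC2, UQCRFS1, COX5A and COX7B) held none. Of the 17 that did not rise 5 held some, namely NDUFS6, NDUFB7, NDUFS1, NDUFS3 and UQCRQ. These are matches of letters in a short window, chosen with results of these data known, and say nothing of binding.

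Mitochondrial transcripts were far from equal among themselves. Divided by transcript length, MT-CO3, a core subunit of complex IV, averaged 5770 ± 1741 CPM per kb (SD, n = 12 libraries), and MT-ATP6, the proton channel subunit of complex V, 5423 ± 1313. MT-CO1 and MT-CO2, the catalytic subunits of complex IV, averaged 5329 ± 1380 and 5320 ± 1281. These 4 differed by less than their spread over libraries. Complex I genes lay below them, with MT-ND4 at 3849 ± 512, MT-ND3 at 3358 ± 1088, MT-ND2 at 2886 ± 427 and MT-ND1 at 2557 ± 556. MT-CYB, the mitochondrial subunit of complex III, followed at 1882 ± 676. Next came 3 more complex I genes, MT-ND6 at 1510 ± 546, the only one of the 13 encoded on the opposite strand, MT-ND5 at 1252 ± 357 and MT-ND4L at 961 ± 203, which shares a transcript with MT-ND4. The handling of strand is not given in the sources used here, so counts of MT-ND6, here and below, may include reads antisense to it, and its place is uncertain. In this order each gene down to MT-ND4L differed from its neighbour by less than their spreads added together. All were measured in the same 12 libraries, and these spreads ignore that pairing. They do not tell whether neighbouring genes kept the same order within each library.

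MT-ATP8 stood apart at 22.6 ± 11.2 CPM per kb, although in cells it shares a transcript with MT-ATP6. Its gene is 207 bases long, and its last 46 bases (22.2%) are also the first bases of MT-ATP6, which leaves 161 bases of its own. The sequence, from GENCODE on GRCh38 at chrM:8366-8572 on the plus strand, is shown with the shared bases in capitals.
MT-ATP8: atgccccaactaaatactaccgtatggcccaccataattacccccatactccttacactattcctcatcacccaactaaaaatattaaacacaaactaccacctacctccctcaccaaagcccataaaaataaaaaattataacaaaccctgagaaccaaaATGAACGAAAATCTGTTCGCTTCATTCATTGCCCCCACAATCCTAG
Reads that no single gene could claim made up 9.22% to 10.6% of all counts of a library. How reads that touch both genes were treated is not given in the sources used here, and its part in this level was not tested. Levels of MT-ATP8, and to a lesser degree of MT-ND4L with 7 shared bases, are uncertain.

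The 13 mitochondrial genes together had many more counts than the 34 nuclear ones in every library, and the sums of both genomes followed different patterns. Per 1000000 gene counts, the mitochondrial sum in A549 was 45658 and 32204 in MYC cells with tipifarnib and DMSO, against 42553 and 42900 in control cells with tipifarnib and DMSO. In SKOV3 it was 31441 and 48809 in MYC cells with tipifarnib and DMSO, against 34552 and 30564 in control cells. In MDA-MB-231 it was 30015 and 31792 in MYC cells with tipifarnib and DMSO, against 34177 and 43434 in control cells. MYC cells were thus above control cells in 2 of 6 pairs, and tipifarnib above DMSO in 2 of 6 pairs. The nuclear sum was 5256 and 5285 in MYC cells of A549 with tipifarnib and DMSO, against 3986 and 4357 in control cells. It was 3968 and 4521 in MYC cells of SKOV3, against 3326 and 3587 in control cells, and 4596 and 5246 in MYC cells of MDA-MB-231, against 4124 and 4414 in control cells, in the same order of treatments. The nuclear sum was higher in MYC than in control cells in 6 of 6 pairs and lower with tipifarnib than with DMSO in 6 of 6 pairs. In MYC cells of A549 the sums with tipifarnib and DMSO were nearly equal, at 5256 and 5285. There 15 of the 34 nuclear genes had a higher CPM with tipifarnib. The ratio of the mitochondrial to the nuclear sum ran from 6.06 in MYC cells of MDA-MB-231 with DMSO to 10.8 in MYC cells of SKOV3 with DMSO. In bulk RNA, a lower level in every cell and a smaller share of cells that express a gene cannot be told apart.

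**Figure D1:**
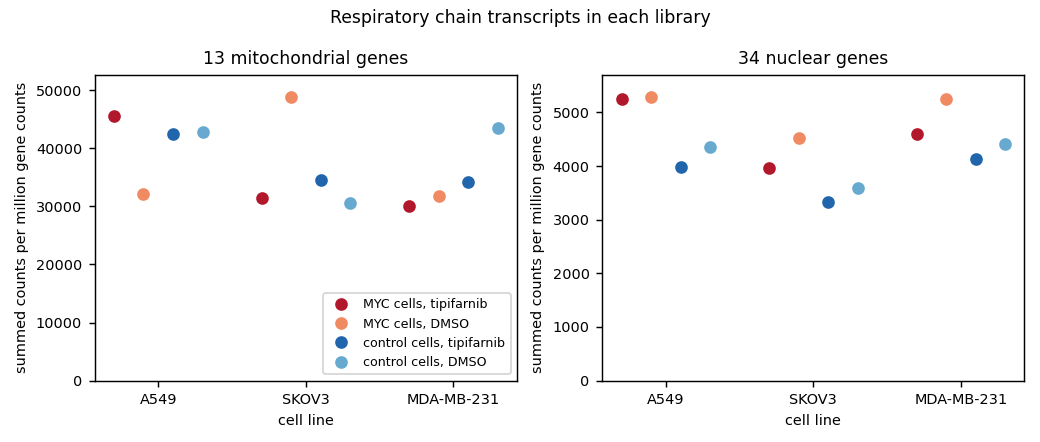
Summed counts of the 13 mitochondrial genes (left) and the 34 nuclear genes (right) per 1000000 gene counts, 1 point per library, by cell line on the horizontal axis. Nuclear sums of MYC cells lie above those of control cells with the same treatment in each line, while mitochondrial sums keep no such order.

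Nuclear respiratory chain genes stood higher in MYC than in control cells, and mitochondrial genes showed no shared difference. The comparison used 6 pairs of libraries that share line and treatment, in a model of line and group fitted to all genes. Of the 34 nuclear members 11 rose in MYC cells and 0 fell, where 4.5% of all 17096 genes rose and 2.84% fell. None of the 13 mitochondrial members passed (0 by adjusted p in edgeR, 0 by unadjusted p under 0.05). Those named below had standard errors at which a change as large as the nuclear median would not have passed. The numbers of calls alone therefore do not show that the genomes differ. The median log2 change was 0.27 over the nuclear members, with 32 of 34 positive, and -0.07 over the mitochondrial members, with 4 of 13 positive, beside -0.00027 over all genes. In all 6 pairs 23 of the 34 nuclear members (67.6%) were higher in MYC cells, against 12.2% of all genes, and 0 of the 13 mitochondrial members. The fit takes the 2 pairs of a line as independent, and no line had a repeat culture within a group, so its p-values reflect the spread among these samples alone. With any 1 line left out, in fits of 8 libraries, all 11 calls were lost, and among all genes 148 passed when MDA-MB-231 was left out, 14 for SKOV3 and 10 for A549. The nuclear median stayed between 0.24 and 0.29 in those fits, while the mitochondrial median ran from -0.25 without SKOV3 to 0.08 without MDA-MB-231.

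Complex I takes electrons from NADH, and 2 of its 16 nuclear members rose. NDUFV1 (ENSG00000167792.7), the subunit that binds NADH, had the highest mean level of them. It had 192 CPM with tipifarnib and 208 CPM with DMSO in MYC cells, against 146 and 148 CPM with the same treatments in control cells in A549. SKOV3 had 161 CPM with tipifarnib and 174 CPM with DMSO in MYC cells, against 123 and 121 CPM with the same treatments in control cells. MDA-MB-231 had 166 CPM with tipifarnib and 168 CPM with DMSO in MYC cells, against 139 and 145 CPM with the same treatments in control cells. Both MYC libraries of each line exceeded both control libraries, and the change was 0.38 ± 0.07 (edgeR quasi-likelihood adjusted p = 0.0199). NDUFC1, an accessory subunit, changed by 0.36 ± 0.09 (adjusted p = 0.0461). The other 14 ran from -0.11 in NDUFV2 to 0.32 in NDUFB9, without passing. NDUFV2, a core subunit with an iron-sulfur cluster, had only 0.183 to 1.54 CPM, the lowest level of all members, and 28.4% of its annotated exon bases are shared with another gene. NDUFC1 shares 18.6% of its exon bases and NDUFV1 a smaller part, so their counts carry that uncertainty.

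Complex II, succinate dehydrogenase, had 2 of 4 members up. SDHB (ENSG00000117118.5), its iron-sulfur subunit, had 100.3 CPM with tipifarnib and 122 CPM with DMSO in MYC cells, against 61.5 and 71.4 CPM with the same treatments in control cells in A549. In SKOV3 SDHB had 106 CPM with tipifarnib and 80.5 CPM with DMSO in MYC cells, against 79.0 and 69.9 CPM with the same treatments in control cells. In MDA-MB-231 SDHB had 99.0 CPM with tipifarnib and 116 CPM with DMSO in MYC cells, against 80.2 and 80.0 CPM with the same treatments in control cells. The 2 genotypes did not overlap within any line, and SDHB changed by 0.50 ± 0.12 (edgeR quasi-likelihood adjusted p = 0.0323). SDHD, a membrane anchor, changed by 0.38 ± 0.09 (adjusted p = 0.0394). The catalytic subunit SDHA had 0.21 ± 0.09 and the other anchor SDHC 0.01 ± 0.08, neither passing.

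Complex III passes electrons from coenzyme Q to cytochrome c, and 3 of its 6 nuclear members rose. UQCRC2 (ENSG00000140740.6), a core protein, had the smallest p of all members. It had 296 CPM with tipifarnib and 367 CPM with DMSO in MYC cells, against 181 and 227 CPM with the same treatments in control cells in A549. SKOV3 showed 188 CPM with tipifarnib and 213 CPM with DMSO in MYC cells, against 142 and 155 CPM with the same treatments in control cells. MDA-MB-231 showed 184 CPM with tipifarnib and 204 CPM with DMSO in MYC cells, against 137 and 169 CPM with the same treatments in control cells. Within each line the lowest MYC library exceeded the highest control library, and the change was 0.49 ± 0.09 (edgeR quasi-likelihood adjusted p = 0.0146), a 1.41-fold difference.

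CYC1, cytochrome c1, had 424 CPM with tipifarnib and 465 CPM with DMSO in MYC cells, against 232 and 299 CPM with the same treatments in control cells in A549. SKOV3 showed 178 CPM with tipifarnib and 196 CPM with DMSO in MYC cells, against 128 and 138 CPM with the same treatments in control cells. MDA-MB-231 showed 340.2 CPM with tipifarnib and 544 CPM with DMSO in MYC cells, against 306 and 436 CPM with the same treatments in control cells. The genotypes were separate in A549 and SKOV3 and overlapped in MDA-MB-231, and CYC1 changed by 0.50 ± 0.12 over the lines (adjusted p = 0.0329). UQCRFS1, the Rieske iron-sulfur protein, changed by 0.41 ± 0.08 (adjusted p = 0.0214). UQCRC1, UQCRB and UQCRQ lay between 0.04 and 0.17 and did not pass.

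CYCS (ENSG00000172115.4) encodes cytochrome c, the soluble carrier between complexes III and IV, which also triggers apoptosis when released from mitochondria. It had 481 CPM with tipifarnib and 642 CPM with DMSO in MYC cells, against 258 and 382 CPM with the same treatments in control cells in A549. SKOV3 cells had 169 CPM with tipifarnib and 175 CPM with DMSO in MYC cells, against 119 and 96.3 CPM with the same treatments in control cells. MDA-MB-231 cells had 352 CPM with tipifarnib and 573 CPM with DMSO in MYC cells, against 274 and 476 CPM with the same treatments in control cells. The genotypes were separate within A549 and SKOV3 but overlapped in MDA-MB-231, where MYC cells with tipifarnib were below control cells with DMSO. The change of 0.59 ± 0.15 was the largest among nuclear members (edgeR quasi-likelihood adjusted p = 0.0459). CYCS has processed pseudogenes, as do COX7C, UQCRB and some others, so that part of their counts may belong elsewhere.

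Complex IV reduces oxygen, and 3 of its 7 nuclear members rose, COX5A (0.40 ± 0.08, adjusted p = 0.0224), COX5B (0.33 ± 0.08, adjusted p = 0.035) and COX7B (0.36 ± 0.09, adjusted p = 0.0472). COX5B and COX7B were named after their values were seen. COX5A, an accessory subunit, had 236 CPM with tipifarnib and 215 CPM with DMSO in MYC cells, against 162 and 176 CPM with the same treatments in control cells in A549. It had 108 CPM with tipifarnib and 112 CPM with DMSO in MYC cells, against 73.1 and 81.6 CPM with the same treatments in control cells in SKOV3. MDA-MB-231 showed 163 CPM with tipifarnib and 191 CPM with DMSO in MYC cells, against 146 and 146 CPM with the same treatments in control cells. No MYC library was below a control library of its line. COX4I1, the regulatory subunit with the highest mean level of the 34 nuclear members, had 0.27 ± 0.07 without passing (adjusted p = 0.053). NDUFA4, long assigned to complex I and now known as a complex IV subunit, had 0.23 ± 0.08, COX7C 0.35 ± 0.11 and COX6C 0.14 ± 0.13, none passing.

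**Figure D2:**
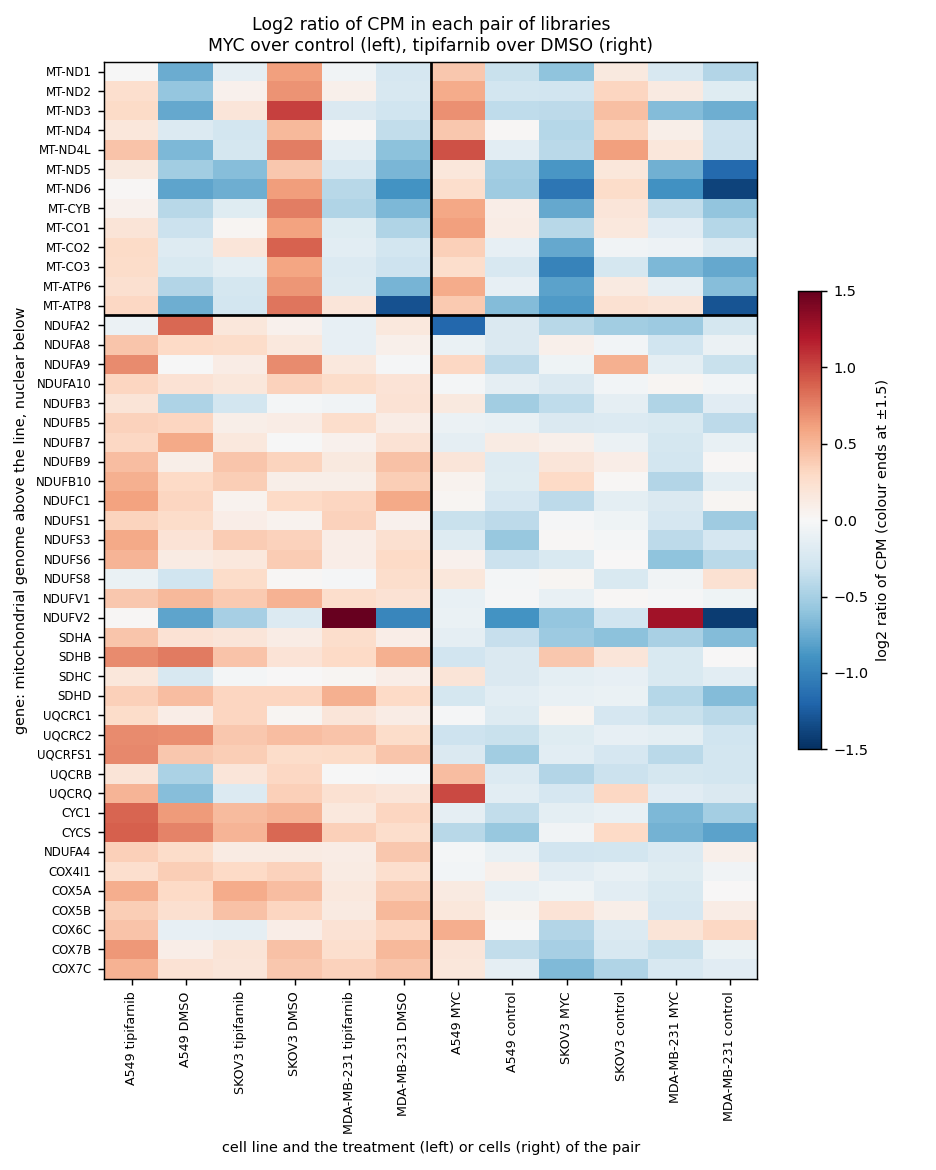
Log2 ratio of CPM for each of the 47 genes (vertical axis, mitochondrial genes above the line) in the 6 MYC over control pairs (left columns) and the 6 tipifarnib over DMSO pairs (right columns), with colour ends at ±1.5. Nuclear genes are mostly red in the MYC columns, and the mitochondrial block is mostly of 1 colour within a column but not across columns.

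The mitochondrial genes moved together within a pair but not the same way between pairs. Between MYC and control cells their median log2 ratio was 0.24 in A549 with tipifarnib but -0.53 with DMSO, where 13 of 13 genes were lower in MYC cells. SKOV3 showed the opposite, with -0.18 in tipifarnib and 0.66 in DMSO, where 13 of 13 were higher in MYC cells. In MDA-MB-231 the medians were -0.19 with tipifarnib and -0.45 with DMSO, where again 13 of 13 were lower in MYC cells. The nuclear medians of the same pairs were 0.42 with tipifarnib and 0.26 with DMSO in A549, 0.19 and 0.31 in SKOV3 cells, and for MDA-MB-231 0.17 and 0.26, in that order of treatments. All 13 mitochondrial genes of a library share their RNA and depth, so a median over them describes that pair of libraries.

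Among single mitochondrial genes, MT-ND6, a complex I subunit, had the smallest p for MYC. It had 751 CPM with tipifarnib and 624 CPM with DMSO in MYC cells, against 745 and 1082 CPM with the same treatments in control cells in A549. SKOV3 had 590.3 CPM with tipifarnib and 1251 CPM with DMSO in MYC cells, against 979 and 811 CPM with the same treatments in control cells. MDA-MB-231 had 348 CPM with tipifarnib and 654 CPM with DMSO in MYC cells, against 464 and 1215 CPM with the same treatments in control cells. MYC and control libraries overlapped in each line, and the fitted value was -0.37 ± 0.23 (edgeR quasi-likelihood adjusted p = 0.349). MT-ND5 had -0.26 ± 0.18 and MT-CO2 0.14 ± 0.16 (adjusted p = 0.412 and 0.664). MT-CO1, the mitochondrial gene with most counts, had 5887 to 12480 CPM over the 12 libraries and -0.01 ± 0.16. With standard errors of 0.16 to 0.23, a change of 0.27, the nuclear median, would not have passed in these genes.

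Within single lines the rise of nuclear members was called in A549 and SKOV3. For this, each line was given an effect of MYC and an effect of tipifarnib of its own, and what these left over served as the error. In A549 10 of 47 members rose with MYC, where 9.94% of all genes rose and 7.8% fell, led by CYCS (0.82 ± 0.12, adjusted p = 0.00211), CYC1 (0.75 ± 0.11, 0.00233) and UQCRC2 (0.70 ± 0.11, 0.00242) in the edgeR quasi-likelihood test. In SKOV3 5 rose, where 4.58% of all genes rose and 4.5% fell, CYCS (0.68 ± 0.12), CYC1 (0.49 ± 0.11), COX5A (0.51 ± 0.12), NDUFV1 (0.46 ± 0.11) and UQCRC2 (0.43 ± 0.11). In MDA-MB-231 0 of 47 passed edgeR and 13 had an unadjusted p under 0.05, where 0.813% of all genes rose and 0.831% fell, and DESeq2 called 1. The smallest p values there were those of SDHB (0.42 ± 0.12, adjusted p = 0.0989), SDHD (0.42 ± 0.12, 0.105) and NDUFC1 (0.45 ± 0.14, 0.12). Leaving out single libraries of the line, with the lone library of an arm assumed to vary like the others, gave 4 to 6 members in A549 and 0 to 2 in SKOV3.

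The medians of the 34 nuclear members were 0.34 for A549, 0.25 for SKOV3 and 0.23 for MDA-MB-231. For the mitochondrial members they were -0.16, 0.25 and -0.32 in the same lines. The MYC effect itself differed between lines for 0 of the 47 members in the edgeR quasi-likelihood F test, beside 3.07% of all genes, with 4 at an unadjusted p under 0.05 and 0 by DESeq2. Those 4 were CYC1, MT-CO2, CYCS and MT-CYB, named after their values were seen, with adjusted p from 0.242 to 0.294.

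Tipifarnib was followed by lower levels of a few chain genes, in a number near that found among all genes. Over the lines 2 of 47 members fell, both nuclear, and 0 rose, where 6.63% of all genes fell and 4.66% rose. A further 16 members had an unadjusted p under 0.05, but the share of all genes at that level is not given here, so this number has nothing to be read against. Median log2 changes were -0.17 over the nuclear and -0.20 over the mitochondrial members, beside 0.00069 over all genes, with 29 of 34 and 10 of 13 negative. The mitochondrial median ran from -0.35 without A549 to -0.066 without MDA-MB-231. Of the nuclear members 8 (23.5%) were lower with tipifarnib in 6 of 6 pairs, against 11.3% of all genes, and of the mitochondrial members 0. The mitochondrial genes again moved together within pairs. Their median log2 ratio of tipifarnib to DMSO was 0.41 in MYC cells of A549, with 13 of 13 higher, and -0.23 in control cells. It was -0.76 in MYC cells of SKOV3, with 13 of 13 lower, and 0.18 in control cells. MDA-MB-231 had -0.17 in MYC cells and -0.59 in control cells, with 13 of 13 lower in the control cells. MYC cells and control cells thus differed in sign in A549 and SKOV3, each from a single pair of libraries.

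SDHA (ENSG00000073578.12), the flavoprotein of complex II that oxidises succinate, had the smallest p. It had 199 CPM in MYC and 149 CPM in control cells with tipifarnib, against 218 and 188 CPM in the same cells with DMSO in A549. SKOV3 had 116 CPM in MYC and 103 CPM in control cells with tipifarnib, against 169 and 157 CPM in the same cells with DMSO. MDA-MB-231 had 188 CPM in MYC and 156 CPM in control cells with tipifarnib, against 263 and 245 CPM in the same cells with DMSO. Treated and untreated libraries did not overlap in SKOV3 or MDA-MB-231, but in A549 the treated MYC library exceeded the untreated control library. SDHA changed by -0.46 ± 0.09 on the log2 scale (edgeR quasi-likelihood adjusted p = 0.0104), and did not pass without SKOV3 (adjusted p = 0.0703) or without MDA-MB-231 (adjusted p = 0.185).

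UQCRFS1 of complex III had 314 CPM in MYC and 191 CPM in control cells with tipifarnib, against 364 and 275 CPM in the same cells with DMSO in A549, and changed by -0.30 ± 0.08 over the lines (adjusted p = 0.0406). It was lower with tipifarnib in 6 of 6 pairs, and did not pass without A549 (adjusted p = 0.191), SKOV3 (0.0847) or MDA-MB-231 (0.294), nor with no filter on low counts (0.12). NDUFA2 of complex I, a gene of 4.79 to 20.2 CPM, had -0.53 ± 0.16 (adjusted p = 0.0541). SDHD had -0.28 ± 0.09, NDUFS1, the largest subunit of complex I, -0.26 ± 0.09, and CYC1 -0.32 ± 0.12, with adjusted p of 0.0817, 0.0842 and 0.105 in the edgeR quasi-likelihood test. The 13 mitochondrial genes ran from -0.60 in MT-ND6 to 0.11 in MT-ND4L, and MT-CO3 (-0.46 ± 0.17, adjusted p = 0.106) and MT-ND5 (-0.50 ± 0.18, 0.108) came nearest to passing. MT-CO3, MT-ND5 and MT-ND6 did pass with no filter on low counts (adjusted p = 0.0369, 0.0375 and 0.0387) and when each line had effects of its own (adjusted p = 0.0105, 0.0247 and 0.0301), and not by DESeq2 (0.0531, 0.0545 and 0.0599).

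**Figure D3:**
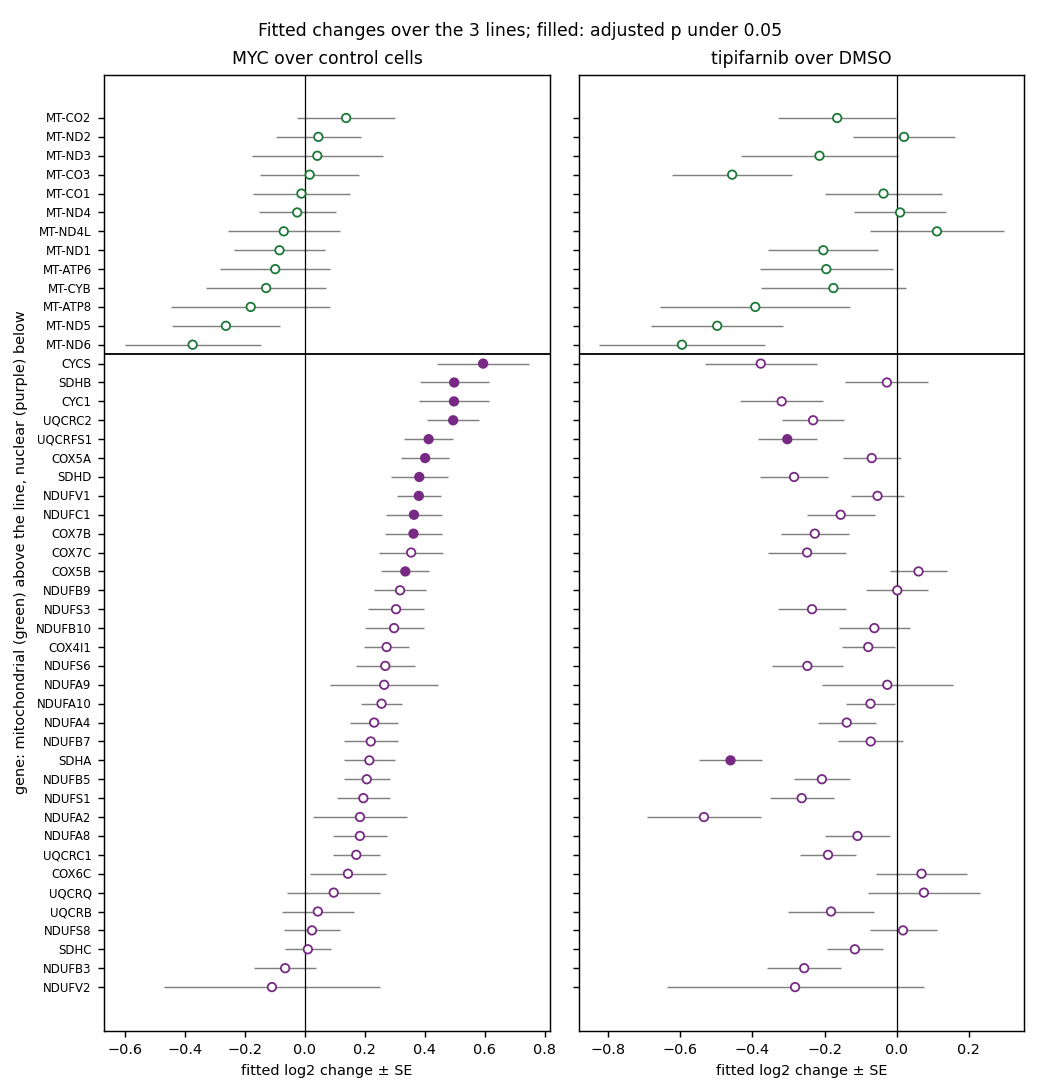
Fitted log2 change ± SE of each of the 47 genes over the 3 lines, for MYC over control cells (left) and tipifarnib over DMSO (right), with mitochondrial genes above the line and nuclear genes below it, sorted by the MYC change within each genome. Filled points, 11 for MYC and 2 for tipifarnib, have an adjusted p under 0.05 in the edgeR quasi-likelihood test.

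Within MDA-MB-231, 9 of 47 members fell with tipifarnib, where 12.1% of all genes fell and 10.6% rose. They were the mitochondrial MT-CO3, MT-ND5 and MT-ND6 and the nuclear CYCS, CYC1, SDHA, SDHD, NDUFS6 and NDUFS1. CYCS (-0.75 ± 0.12, adjusted p = 0.00283), CYC1 (-0.59 ± 0.11, 0.00623) and SDHA (-0.57 ± 0.11, 0.00708) had the smallest p in the edgeR quasi-likelihood test. MT-ND6 had the largest change, -1.15 ± 0.29. Its counts may include reads antisense to it, and whether its fall was separate from that of MT-ND5 was not tested. In SKOV3 3 members fell, where 7.48% of all genes fell and 6.57% rose, namely SDHA (-0.58 ± 0.11, adjusted p = 0.00935), COX7C (-0.56 ± 0.12, 0.0149) and MT-CO3 (-0.63 ± 0.18, 0.0457). In A549 only CYCS fell (-0.49 ± 0.12, adjusted p = 0.0404), where 4.48% of all genes fell and 3.56% rose, while NDUFS1 (-0.36 ± 0.11) and UQCRFS1 (-0.37 ± 0.12) came next. The fitted medians of the mitochondrial members were 0.14 for A549, -0.29 for SKOV3 and -0.39 for MDA-MB-231, where 13 of 13 were negative. Those of the nuclear members were -0.10, -0.12 and -0.21 in the same lines. With 1 library of the line left out the counts were 0 in each such fit of MDA-MB-231, 0 to 5 in SKOV3 and 0 to 2 in A549.

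The response of CYCS to tipifarnib differed between the lines. It was 0.12 ± 0.12 for SKOV3, -0.49 ± 0.12 for A549 and -0.75 ± 0.12 for MDA-MB-231, and the F test of their equality gave an adjusted p of 0.0337 (edgeR quasi-likelihood). CYCS was the only member of 47 to pass that test, which 7.69% of all genes did. In SKOV3, the line with least CYCS, treated and untreated libraries overlapped, as the values given with the MYC comparison show. Leaving out any 1 library of MDA-MB-231 gave an adjusted p of 0.148 to 0.15, and of SKOV3 0.0485 to 0.124, losing the call without either control library or the MYC library with DMSO of SKOV3. SKOV3 and MDA-MB-231, the lines farthest apart, had the same dose of 20 µM, while A549 had 10 µM.

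**Figure D4:**
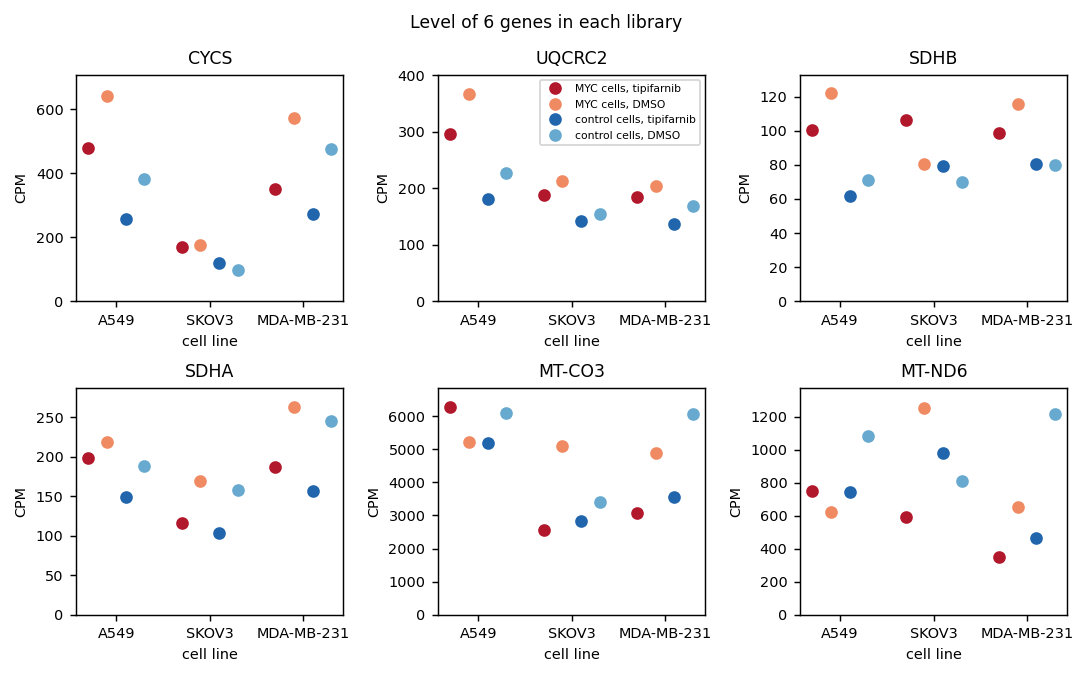
Level in CPM of CYCS, UQCRC2, SDHB, SDHA, MT-CO3 and MT-ND6 in each of the 12 libraries, by cell line on the horizontal axis and group by colour. UQCRC2 and SDHB are higher in MYC than in control cells of each line, SDHA is lower with tipifarnib in each pair, and MT-ND6 keeps no order between groups.

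The share that each gene took of the counts of the 13 mitochondrial genes does not depend on how libraries are scaled. This description was chosen after the values were seen and carries no test. The share of MT-CO3 was lower with tipifarnib in 6 of 6 pairs, with a median log2 ratio of -0.32 and a range from -0.46 to -0.13. In A549 it was 12.9% and 12.3% in MYC and control cells with tipifarnib, against 14.8% and 13.4% in MYC and control cells with DMSO. For SKOV3 the share was 8.58% and 8.66% in MYC and control cells with tipifarnib, against 11.2% and 11.6% in MYC and control cells with DMSO. For MDA-MB-231 it was 10.5% and 11.1% in MYC and control cells with tipifarnib, against 14.4% and 13.3% in MYC and control cells with DMSO. Treated and untreated libraries were separate in each line. The share of MT-CO1 was higher with tipifarnib in 6 of 6 pairs, by a median of 0.12, although by only 0.0050 in control cells of SKOV3. Shares add up to a fixed whole, so a smaller share of some genes means a larger share of others. In CPM, MT-CO1 was higher with tipifarnib in 3 of 6 pairs and MT-CO3 in 1 of 6.

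MT-ND5 took a smaller share with tipifarnib in 5 of 6 pairs, with a median log2 ratio of -0.35, and MT-ND6 in 5 of 6, with -0.45. The pair that differed was control cells of SKOV3 for both genes, at 0.02 and 0.12. In MDA-MB-231 the share of MT-ND5 was 4.1% and 4.41% in MYC and control cells with tipifarnib, against 5.82% and 6.96% in MYC and control cells with DMSO. Between MYC and control cells both shares were lower in 6 of 6 pairs, with medians of -0.19 for MT-ND5 and -0.35 for MT-ND6, although MT-ND6 in SKOV3 with DMSO differed by only -0.0051. MT-ND5 and MT-ND6 are neighbours encoded on opposite strands. The handling of strand is not given in the sources used here, so reads of MT-ND6 and reads antisense to it cannot be told apart. The ratio of MT-ND6 to MT-ND5 counts ran from 0.29 in MYC cells of MDA-MB-231 with tipifarnib to 0.40 in MYC cells of SKOV3 with DMSO. Whether MT-ND5 and MT-ND6 changed separately was not tested. Their results, in any comparison, may thus be a single signal counted under both names.

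**Figure D5:**
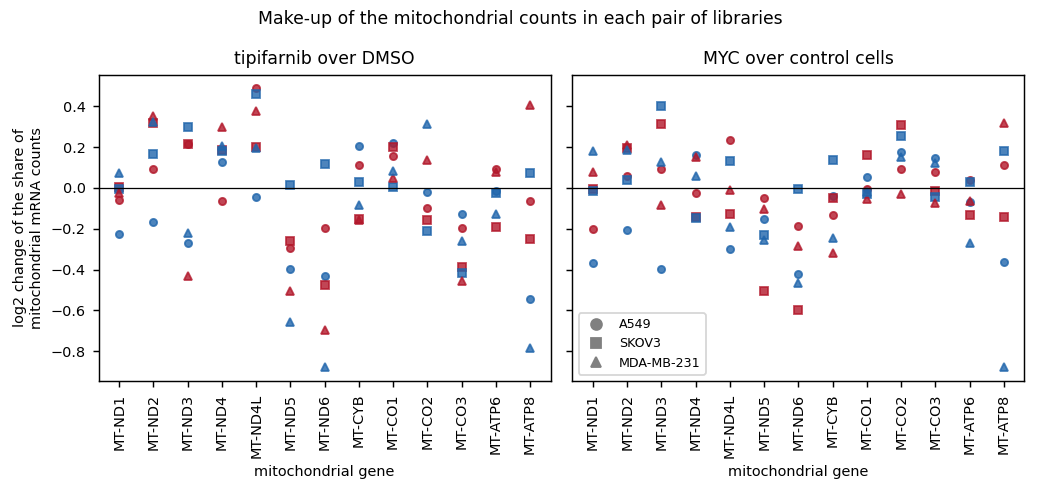
Log2 change of the share of mitochondrial mRNA counts taken by each of the 13 genes (horizontal axis), for tipifarnib over DMSO (left; red MYC cells, blue control cells) and MYC over control cells (right; red tipifarnib, blue DMSO), with 1 point per pair and the marker giving the line. All 6 points of MT-CO3 lie below 0 on the left, and all 6 of MT-ND5 and MT-ND6 lie below 0 on the right.

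Whether tipifarnib acted differently in MYC and control cells was asked with the interaction of both factors over the lines. It was called for 0 of the 47 members and for 0 of the 17096 genes (0%) by adjusted p in edgeR, with 0 members at an unadjusted p under 0.05 and 0 by DESeq2. The smallest p values belonged to NDUFV2 (1.10 ± 0.72), NDUFA2 (-0.39 ± 0.31) and UQCRC1 (0.18 ± 0.16), all with an adjusted p of 1 in edgeR. The interaction of CYCS had a standard error of 0.31, and that of MT-ND6 0.46, so that differences of such a size were not detectable. The interaction also averages the lines, so opposite differences offset each other. Mitochondrial medians of tipifarnib to DMSO in MYC and control cells were 0.41 and -0.23 in A549 and -0.17 and -0.59 in MDA-MB-231. In SKOV3 they were -0.76 and 0.18, the opposite order, each median being from a single pair of libraries.

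The 3 lines differed in many chain genes but, counting both directions, in no larger a share of them than of all genes. A549 and SKOV3 differed in 32 of 47 members (68.1%), beside 68.9% of all genes, and 25 (53.2%) were higher in A549, beside 34.7%. UQCRFS1 (1.57 ± 0.09), CYCS (1.62 ± 0.09) and CYC1 (1.12 ± 0.08) had the smallest p. A549 and MDA-MB-231 differed in 23 members (48.9%), beside 67.9% of all genes, and 15 (31.9%) were higher in A549, beside 35.6%. Among them were NDUFB5 (-1.09 ± 0.08), NDUFB10 (1.20 ± 0.09) and NDUFA4 (1.03 ± 0.08), the positive values being higher in A549. SKOV3 and MDA-MB-231 differed in 30 members (63.8%), beside 71.3% of all genes, and 11 (23.4%) were higher in SKOV3, beside 37.3%. There CYCS (-1.57 ± 0.09), CYC1 (-1.33 ± 0.08) and NDUFS1 (-0.88 ± 0.08) led. Of the mitochondrial genes 6, 4 and 7 differed in these 3 comparisons.

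Further nuclear genes of the same machinery rose in MYC cells, in shares to be read beside the 4.5% of all genes that rose and the 2.84% that fell. ATP synthase, whose nuclear subunits were not among the 34, had 5 of 18 (27.8%) up and 0 down, with a median of 0.26. ATP5MC1, a subunit of the rotor ring, changed by 0.61 ± 0.09, ATP5F1D of the central stalk by 0.54 ± 0.11, the catalytic ATP5F1B by 0.49 ± 0.10 and ATP5PB of the peripheral stalk by 0.39 ± 0.08. Of 21 other complex I subunits 2 (9.52%) rose, among them NDUFAB1 (0.63 ± 0.12). Of 7 other complex III and IV subunits 1 rose, UQCRH (0.56 ± 0.14), which had 0.195 to 0.748 CPM in SKOV3 and 156 to 271 CPM in the other lines, so that its value rests on A549 and MDA-MB-231. Among 44 assembly factors 11 (25%) rose and 0 fell, led by COA4 (0.58 ± 0.09), NDUFAF2 (0.59 ± 0.09), ECSIT (0.73 ± 0.13) and the haem A synthesis enzyme COX10 (0.68 ± 0.13).

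Genes that transcribe, copy or process mitochondrial DNA and RNA rose in MYC cells in part. None of the 13 mitochondrial members passed, but whether their change differed from that of these genes was not tested. Of 18 genes of mitochondrial DNA transcription and replication 6 (33.3%) rose and 1 (5.56%) fell, beside 4.5% and 2.84% of all genes. As for the members, these calls come from a fit that calls 10 to 148 of all genes once a line is left out. The transcription factor TFB2M changed by 0.72 ± 0.11, the polymerase subunit POLG2 by 0.59 ± 0.10, the topoisomerase TOP1MT by 0.51 ± 0.10 and the helicase TWNK by 0.81 ± 0.17, and the thymidine kinase TK2, named after its value was seen, by -0.50 ± 0.11. Of 18 genes of mitochondrial RNA processing and decay 8 (44.4%) rose and 0 fell, with a median of 0.36. The RNA-degrading PNPT1 and SUPV3L1 changed by 0.65 ± 0.08 and 0.72 ± 0.12, LRPPRC, which stabilises mitochondrial mRNAs, by 0.61 ± 0.10, and the poly(A) polymerase MTPAP by 0.47 ± 0.09. Among 8 nuclear regulators 3 (37.5%) rose, the coactivators PPARGC1B (1.31 ± 0.22) and PPRC1 (0.52 ± 0.13) and the receptor ESRRA (0.67 ± 0.12), while GABPB1 had 0.18 ± 0.14 without passing. The ribosomal RNAs of mitochondria, MT-RNR1 (-0.21 ± 0.12) and MT-RNR2 (-0.20 ± 0.15), did not pass.

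With tipifarnib, where 6.63% of all genes fell and 4.66% rose, the ATP synthase genes had 5 of 18 (27.8%) down and 0 up, ATP5MC1 (-0.60 ± 0.09), ATP5PB (-0.44 ± 0.08), ATP5MC3 (-0.45 ± 0.09), ATP5F1A (-0.43 ± 0.09) and, named after its value was seen, ATP5F1B (-0.39 ± 0.10). TFAM, which packages mitochondrial DNA and starts its transcription, changed by -0.61 ± 0.11, and TK2 by 0.54 ± 0.11, 1 of 18 (5.56%) each way in their list, near the share of all genes. The RNA processing enzymes ELAC2 (-0.53 ± 0.08) and TRMT10C (-0.52 ± 0.09), which cut and methylate mitochondrial transfer RNAs, fell, 2 of 18 (11.1%). Of 44 assembly factors 8 (18.2%) fell and 2 (4.55%) rose, among them COX11 (-0.43 ± 0.07), ACAD9 (-0.51 ± 0.09) and COX15 (-0.40 ± 0.08) downward and TTC19 (0.49 ± 0.09) upward. No regulator and no other subunit of complexes I, III or IV passed (0 of 8, 0 of 21 and 0 of 7 by the edgeR quasi-likelihood test, with 4 in each list at an unadjusted p under 0.05). Of 6 isoforms typical of other tissues, 3 had enough counts to be tested, and of these NDUFA4L2 had 1.43 ± 0.42 with tipifarnib (adjusted p = 0.0531) and COX7A1 -1.15 ± 0.39 (adjusted p = 0.0849), neither passing.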

How the data were processed

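A SMARTER mRNA-Seq kit served for library preparation, per the labels' protocols. Per the submitters' processing notes, reads were handled with TopHat2, HTSeq and DESeq2 on hg19, and the authors deposited raw counts per Ensembl gene for 12 libraries. Settings, versions and strand handling are not given in the sources used here. HTSeq's 5 summary lines, 17.5% to 19.9% of all counts, were left out. Gene symbols came from GENCODE 29. Depth was 20481363 to 26962994 gene counts per library, of which mitochondrial genes took 3.65% to 5.59%.

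The counts were fitted with edgeR 4.0.16 in R 4.3.3 (quasi-likelihood, TMM scaling, filterByExpr with a minimum count of 10), which left 17096 of 57820 genes, and p-values were adjusted by Benjamini-Hochberg over all of these, with 0.05 as the threshold. All log2 changes are given ± their standard error. Counts at an unadjusted p under 0.05 are not set beside the share of all genes at that level, in any comparison. One model held line and group. A second gave each line a MYC and a tipifarnib effect of its own, with 3 residual degrees of freedom, and served for single lines and for differences between lines. Samples of the same line and another group deviated together from their group means, with correlations of 0.823 to 0.908. Those of other lines had -0.549 to -0.292. Deviations from a group mean cancel out over the lines, so these negative values follow from the calculation and add nothing on pairing. The pairing follows from the cell line itself. DESeq2 1.42.0, other scalings, no filter on low counts, no line term and libraries left out were tried as alternatives. Both models were run on simulated data, for tipifarnib, MYC and their interaction over the lines, tipifarnib in A549 and MYC in SKOV3. The F tests of differences between lines and the comparisons of the lines themselves were not simulated.

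The genes named for each comparison were those with the smallest p (3 mitochondrial and 6 nuclear for the comparisons over lines, 3 for others, up to 4 for each further list) and the highest level in each complex. The members and lists were chosen with earlier results of these data known. The result of 1 gene of the further lists is not reported here.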

Additional observations from a re-analysis of the deposited data

Results flagged for a closer look

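The change of CYCS, which encodes cytochrome c, with tipifarnib was not the same in the 3 lines. A test of the difference itself, an F test in edgeR's quasi-likelihood framework, gave an adjusted p of 0.0337. The log2 changes were 0.12 ± 0.12 for SKOV3, -0.49 ± 0.12 for A549 and -0.75 ± 0.12 for MDA-MB-231 (± SE, 2 pairs of libraries each). Across the alternatives tried, the adjusted p ran from 0.00012 to 0.15. The dose was 20 µM for SKOV3 and MDA-MB-231 and 10 µM for A549.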

How the results depend on the processing

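The medians of both genomes, for MYC and for tipifarnib over the lines, moved by less than the SD of the medians of the 3 lines. This held under other scalings, no filter, no line term and each line left out. Leaving out 1 of 3 lines can hardly move a median by more than that SD, so that part shows no stability. The mitochondrial median for MYC changed sign, from -0.25 without SKOV3 to 0.08 without MDA-MB-231. Medians were not computed for DESeq2 or for effects of each line. Counts of called members did move. The counts from alternative fits, in this section and above, mostly stand without the share of all genes called in the same fit. They show how the calls shift, and not whether the members stand out from other genes. For MYC over the lines they were 7 of 47 with no filter on low counts and 22 when each line had effects of its own, against 11. For tipifarnib they were 4 with no filter, 4 by DESeq2 and 15 with own effects, against 2. DESeq2 and the fit with own effects shared both calls and the fit with no filter 1, SDHA, and MT-CO3, MT-ND5 and MT-ND6 passed with no filter and with own effects. With no line term, which drops the pairing by replicate block, both counts were 0. Leaving out 1 line gave 0 for MYC in each case and 0 to 1 for tipifarnib. Among single genes, MT-CO2, at 0.14 for MYC, turned to -0.091 without SKOV3 and was 0.30 without MDA-MB-231. The cause was not tested in any of these cases.

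Within lines, the fit with no filter called 5 for tipifarnib in A549, 7 for SKOV3 and 14 for MDA-MB-231, and for MYC 9 in SKOV3 and 5 in MDA-MB-231. Here too the share of all genes called by that fit is not given. It called 10 for the difference between lines in tipifarnib effects and 8 in MYC effects. DESeq2 called 2 for tipifarnib in A549, 1 for MYC in MDA-MB-231 and 2 for the difference in tipifarnib effects. With single libraries left out, tipifarnib counts were 0 to 2 for A549, 0 to 5 for SKOV3 and 0 for MDA-MB-231, and MYC counts 4 to 6 in A549 and 0 to 2 in SKOV3. The differences between lines were then called for 0 to 5 members with tipifarnib and 0 to 1 with MYC. Comparisons of the lines themselves gave 15 to 22 members for A549 against MDA-MB-231 and 19 to 29 for SKOV3 against MDA-MB-231. With 1 library left out, a line had a single library at some level of MYC or tipifarnib, which was assumed to vary like the others. NDUFV2 and MT-ATP8, with few counts, are the least precise members.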
